A study of Sus scrofa with 35 samples.

Results

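OTX2 is a homeobox transcription factor, and its overexpression was set directly against its knockout in expanded potential stem cells of the pig (pEPSCs). pEPSCs are pluripotent stem cells derived from early pig embryos. The comparison rests on 3 bulk RNA libraries of OTX2 overexpression (OE), numbered 1, 2 and 3, and 3 of OTX2 knockout (KO), whose columns are numbered 1, 3 and 4. The same 3 wild-type (WT) libraries accompany both groups and were used to place each gene in the order of OTX2 level, KO, WT and OE. These 9 libraries are among the 35 samples of the series, which also profiles chromatin, transcription factor binding and 4-cell embryos. All groups carry the same labels for tissue (embryonic) and cell type (EPSC). The labels give neither the overexpression vector nor its promoter nor the edited part of the gene, and the knockout columns share the prefix KO1, which no label explains. Separate cultures or clones within a group are not mentioned in the labels, so the p-values below measure the spread between these libraries, which may be technical.

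The members were the nuclear genes listed in both deposited tables, 12109 of the 13293 genes in the overexpression table and of the 12299 in the knockout table. Of these, 12085 reached at least 1 TPM (a length-normalized level whose total is the same in each library) in at least 3 of the 6 OE and KO libraries and were tested. Levels below are TPM rescaled so that the nuclear genes of each library have the same total as a full TPM column. They were set across the tables because TPM is scaled within a library and the WT values of both tables were identical. Whether the OE and KO libraries were prepared and sequenced together is not known. A batch difference between these groups cannot be told apart from the difference between OE and KO. Fold changes are OE minus KO on the log2(TPM + 1) scale, which understates the change of genes at a few TPM, and adjusted p-values come from limma with Benjamini-Hochberg adjustment over all genes tested. Values of a gene are given in the order KO 1, 3 and 4, then WT 1, 2 and 3, then OE 1, 2 and 3.

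In the embryo, OTX2 acts first in the epiblast, where it belongs to the factors that carry cells from naive towards formative and primed pluripotency, and later in the anterior neural plate, which gives rise to forebrain and midbrain. It is also known in the retina, where it directs cells to the photoreceptor fate and acts upstream of the photoreceptor factor CRX. OTX2 binds DNA through its homeodomain and can both activate and repress genes.

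Mitochondrial genes took 9.02% to 10.1% of TPM in the OE libraries, 14.5% to 15.7% in WT, and 22.4%, 10.2% and 10.3% in KO libraries 1, 3 and 4. KO library 1 stood apart from the other 2 libraries of its group: across genes its correlation with them was 0.975 on the log2 scale, against 0.994 between libraries 3 and 4 and 0.994 to 0.996 among the OE libraries. Results that change without it are given both ways. The summed level of 6 markers of pluripotent stem cells (POU5F1, SOX2, NANOG, LIN28A, SALL4 and TDGF1) was 2992 to 4389 TPM in KO, 4288 to 4531 in WT and 2400 to 2642 in OE, so these markers were present in every library. Of 9 fibroblast and mesenchyme markers, 5 were listed in both tables, with sums of 50.1 to 78.1 TPM in KO, 16.0 to 19.0 in WT and 42.7 to 50.5 in OE, while COL3A1, LUM, DCN and PDGFRB were not listed in both. None of the trophoblast markers CDX2, GATA2, GATA3, HAND1 and ELF5 was listed in both tables. In bulk RNA, fewer cells of a type and less RNA per cell cannot be told apart, and the part of other cell types in the results was not tested.

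OTX2 itself (gene 100512643, chromosome 1 of Sscrofa11.1, 186028575 to 186039026) was at 128, 145 and 128 TPM in KO, 307, 299 and 305 TPM in WT and 10758, 9932 and 12068 TPM in OE. The 3 groups followed the order of the labels without overlap, and the difference between OE and KO was 6.34 (SE 0.0936, adjusted p = 1.9e-07). The knockout libraries still held OTX2 transcript. A gene total does not show whether the part that was edited is missing, so the remaining transcript says nothing about the protein.

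The engineered groups differed in most genes. Of 12085 genes, 7252 (60.0%) passed at an adjusted p of 0.05, 4260 (35.3%) higher in OE and 2992 (24.8%) lower. Past 2-fold there were 2087 genes (17.3%) higher and 822 (6.80%) lower. The libraries of OE and KO did not overlap for 8350 genes (69.1%), of which 4930 (40.8%) lay above KO in OE and 3420 (28.3%) below. Of the tested genes, 94 passed the filter on low values through OE alone, all 3 KO libraries being under 1 TPM, and 34 through KO alone. These could differ in 1 direction only, and among the other 11957 genes 4168 were higher and 2959 lower. The balance of the directions depends on the scaling: the median gene moved by 0.12 on the log2 scale here, by -0.01 under median-ratio scaling (3865 higher, 3690 lower) and by -0.06 under quantile normalization (3654 higher, 4221 lower). Without KO library 1, 8942 genes passed, 4799 higher and 4143 lower.

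**Figure D1:**
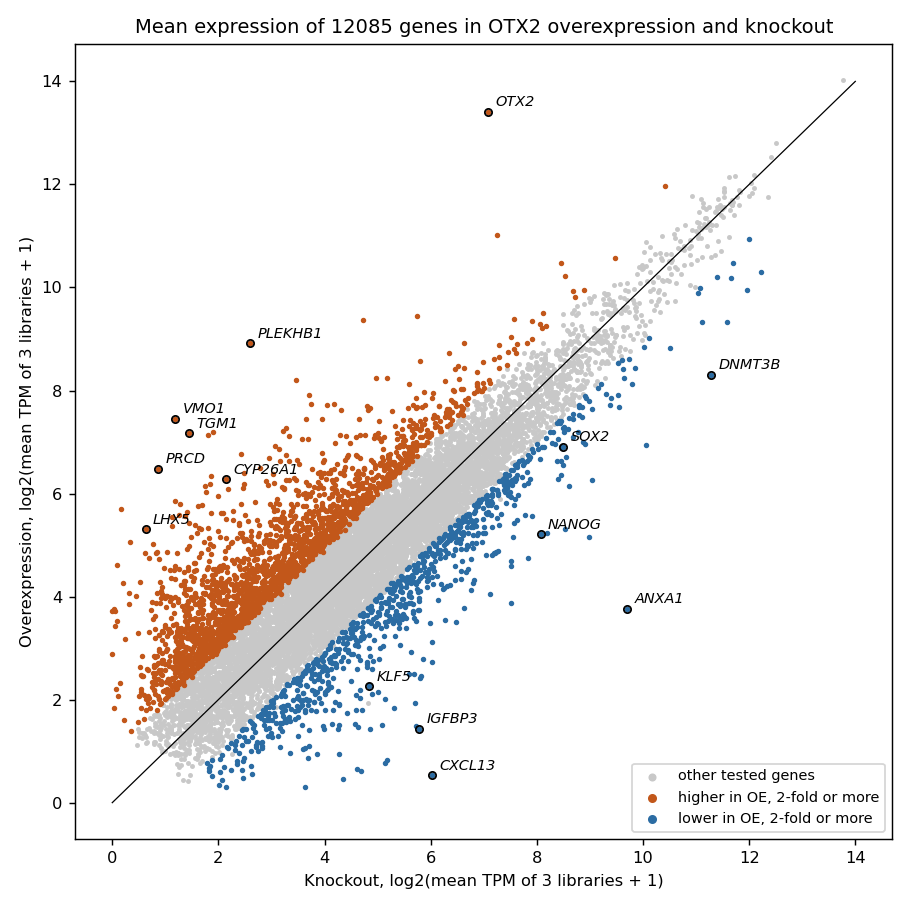
Each point is 1 of the 12085 tested genes, with the mean TPM of the 3 knockout libraries on the horizontal axis and of the 3 overexpression libraries on the vertical axis, both as log2(mean + 1). Orange points passed the test at 2-fold or more higher in overexpression (2087 genes), blue points at 2-fold or more lower (822 genes), and the line marks equal levels. OTX2 lies farthest above the line and ANXA1 farthest below it.

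Most genes with the highest OE to KO differences were near silent in KO and high in OE. PLEKHB1, a pleckstrin homology protein described in photoreceptors, was at 4.78, 5.85 and 4.52 TPM in KO, 12.3, 10.9 and 13.5 in WT and 491, 471 and 485 in OE, which is 6.33 (SE 0.11, adjusted p = 1.92e-07) as a log2 fold change. VMO1, named after the vitelline membrane outer layer, was at 1.27, 0.627 and 1.94, 40.7, 33.3 and 29.1 and 164, 169 and 191 TPM (6.31, adjusted p = 1.5e-06). PRCD, a small protein of the photoreceptor disc membrane, was at 0.792, 1.09 and 0.609, 4.57, 4.89 and 6.21 and 87.9, 91.4 and 85.98 TPM (5.62, adjusted p = 5.5e-07). For these genes the groups did not overlap and the order was KO, WT, OE. LHX5, a LIM-homeobox factor of the forebrain, had the same order at 0.677, 0.469 and 0.495, 19.1, 17.3 and 18.6 and 43.97, 39.1 and 32.7 TPM, with a difference of 4.67 (SE 0.147, adjusted p = 1.31e-06). CAMK1G, a calcium and calmodulin dependent kinase, was at 0.0401, 0 and 0.336, 3.72, 1.597 and 3.13 and 52.4, 52.2 and 47.9 TPM (5.54). IGSF21, an immunoglobulin superfamily protein of synapses, and NMB, the neuropeptide neuromedin B, completed the genes of this order among the 12 highest, at 4.74 and 4.73. LHX5, CAMK1G and IGSF21 were under 1 TPM in every KO library and so passed the filter through OE alone.

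The other genes among the 12 highest were not graded across the 3 groups. TGM1, the transglutaminase that cross-links the cornified envelope of skin, was at 1.55, 2.17 and 1.44 TPM in KO, 1.39, 1.07 and 1.202 in WT and 144, 141 and 145 in OE, which is 5.73 (SE 0.133, adjusted p = 5.5e-07) as a log2 fold change. FXYD3, a regulator of the sodium pump, was at 2.95, 1.89 and 3.29, 2.63, 0.599 and 2.19 and 158, 145 and 135 TPM (5.32), and RESP18, a protein of secretory granules in neuroendocrine cells, at 2.57, 2.495 and 2.46, 1.61, 1.65 and 1.12 and 133, 125 and 160.0 TPM (5.31). CD40, a receptor of the tumour necrosis factor family, was at 1.803, 0.764 and 1.26, 1.43, 2.21 and 2.18 and 60.6, 55.2 and 55.7 TPM (4.70). For these genes KO and WT were both at a few TPM and OE was far above both.

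Genes of photoreceptors stood among the high ones, and a textbook list of 46 was drawn up after their values were seen, so it is described with no test. Of the 46 genes, 7 were in both tables and all 7 were higher in OE, against 35.3% of all genes tested. The disc protein PRCD is given above. AIPL1, the photoreceptor chaperone of cGMP phosphodiesterase, was at 0.915, 0.772 and 0.577 TPM in KO, 1.27, 2.31 and 1.76 in WT and 11.7, 10.6 and 11.4 in OE (log2 fold change 2.81 (SE 0.131, adjusted p = 4.46e-06)). TULP1, a tubby-like protein of photoreceptor transport, was at 2.75, 3.803 and 2.65, 20.9, 21.5 and 22.7 and 35.95, 36.3 and 31.4 TPM (3.14 (SE 0.148, adjusted p = 4.67e-06)). Both genes rose in the order KO, WT, OE without overlap. UNC119, a lipid-binding transport protein of photoreceptors, was at 75.6, 79.9 and 73.6 TPM in KO and 302, 294 and 277 in OE (1.92), with WT at 67.1, 71.5 and 63.4. ROM1 and PROM1, membrane proteins of the outer segment, differed by 0.99 and 1.38. PROM1 was highest in WT, at 14.5, 14.9 and 16.2 TPM. GNB1, a transducin beta subunit expressed in many cells, differed by 0.22 (adjusted p = 0.0415), a call lost under median-ratio scaling (0.08) and without KO library 3 or 4 or OE library 1 or 2. AIPL1 was under 1 TPM in every KO library and was not tested without any 1 OE library, so the higher genes then numbered 5 or 6.

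Another 11 of the 46 photoreceptor genes were listed in the overexpression table alone, and the other 28 were not analysed here. Those 11 have no KO value here, and their levels are TPM as deposited. The transcription factor NRL, which sets rod identity, was at 0, 0.219 and 0.0559 TPM in WT and 23.8, 25.2 and 27.4 in OE. CRX, the photoreceptor factor downstream of OTX2 in the retina, was at 0.1295, 0 and 0.969 TPM in WT and 3.57, 5.97 and 3.47 in OE. GUCA1A, an activator of photoreceptor guanylate cyclase, was at 0.747, 0.422 and 0.669 and 49.04, 47.3 and 52.8 TPM, and the cyclase GUCY2D at 0.712, 0.856 and 1.06 and 23.9, 22.7 and 23.4 TPM. Each of the 11 had a WT mean under 1 TPM, so it reached the mean of 1 TPM seen for all listed genes through OE. A listing in the overexpression table alone nearly fixes the direction. Of the 988 genes of this kind with a gene symbol, 963 had a higher mean in OE than in WT, and these 11 are among them. The transducins GNAT1 (7.45, 6.602 and 7.77 TPM in OE) and GNB3 (26.4, 24.4 and 23.3 TPM), the arrestin SAG (15.2, 17.3 and 14.98 TPM) and recoverin, RCVRN (3.87, 4.31 and 3.61 TPM), belong to the same 11.

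**Figure D2:**
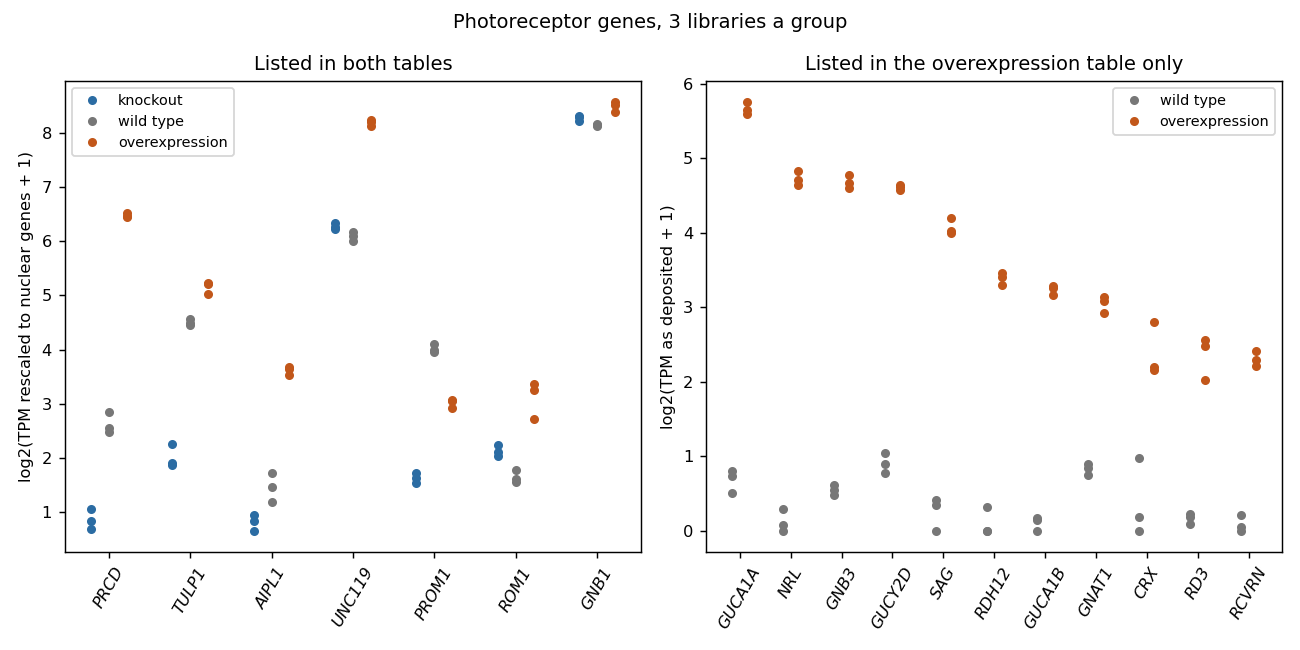
Points are libraries, with 7 photoreceptor genes listed in both tables on the left (blue, knockout; grey, wild type; orange, overexpression) and 11 listed in the overexpression table alone on the right. The vertical axes show log2(TPM + 1), rescaled to nuclear genes on the left and as deposited on the right. The genes on the right entered the table through overexpression, where they are high, so their direction against wild type is nearly fixed by the listing.

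The genes with the lowest OE to KO differences were high in KO. ANXA1, the phospholipid-binding annexin A1, was at 898, 601 and 993 TPM in KO, 12.8, 14.3 and 9.88 in WT and 9.98, 12.1 and 15.8 in OE, which is -5.92 (SE 0.222, adjusted p = 2.23e-06) as a log2 fold change. OE and WT overlapped, so this difference lay on the KO side. CXCL13, a chemokine, was at 76.3, 48.9 and 67.9 TPM in KO, 16.02, 16.2 and 13.5 in WT and 0.575, 0.4900 and 0.267 in OE (-5.48 (SE 0.189, adjusted p = 1.6e-06)). IGFBP3, an insulin-like growth factor binding protein of trophoblast and many other cells, was at 39.5, 56.8 and 65.9, 5.95, 6.06 and 7.53 and 1.896, 0.785 and 2.45 TPM (-4.37). IRF4, an interferon regulatory factor of lymphoid cells, was at 28.6, 39.5 and 37.7, 3.86, 3.17 and 4.87 and 1.09, 0.495 and 0.729 TPM (-4.36). The last 3 genes fell from KO to WT to OE with no overlap.

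The remaining genes among the 12 lowest had the same order. TPMT, which methylates thiopurine drugs, was at 507, 499.8 and 507 TPM in KO, 190.3, 182 and 181 in WT and 33.1, 34.5 and 36.9 in OE, a difference of -3.82 (SE 0.0789, adjusted p = 3.47e-07). AQP11, an aquaporin of intracellular membranes, was at 210.4, 163 and 174, 52.8, 56.8 and 49.7 and 14.2, 14.8 and 12.04 TPM (-3.64), and SGPP2, a sphingosine-1-phosphate phosphatase, at 35.3, 52.9 and 65.3, 13.1, 11.7 and 11.8 and 2.76, 2.96 and 2.78 TPM (-3.72). Also among them were the GABA receptor subunit GABRG1 (-4.38), the neuropeptide Y receptor NPY1R (-3.96), the diacylglycerol kinase DGKB (-3.87) and HAPLN1, which links hyaluronan to proteoglycans (-4.07). ADGRG2, an adhesion G protein-coupled receptor, was at 34.1, 57.1 and 63.7 TPM in KO and 1.95, 2.101 and 1.33 in OE (-4.20). GABRG1, HAPLN1, NPY1R, DGKB and CXCL13 were under 1 TPM in every OE library and so passed the filter through KO alone.

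**Figure D3:**
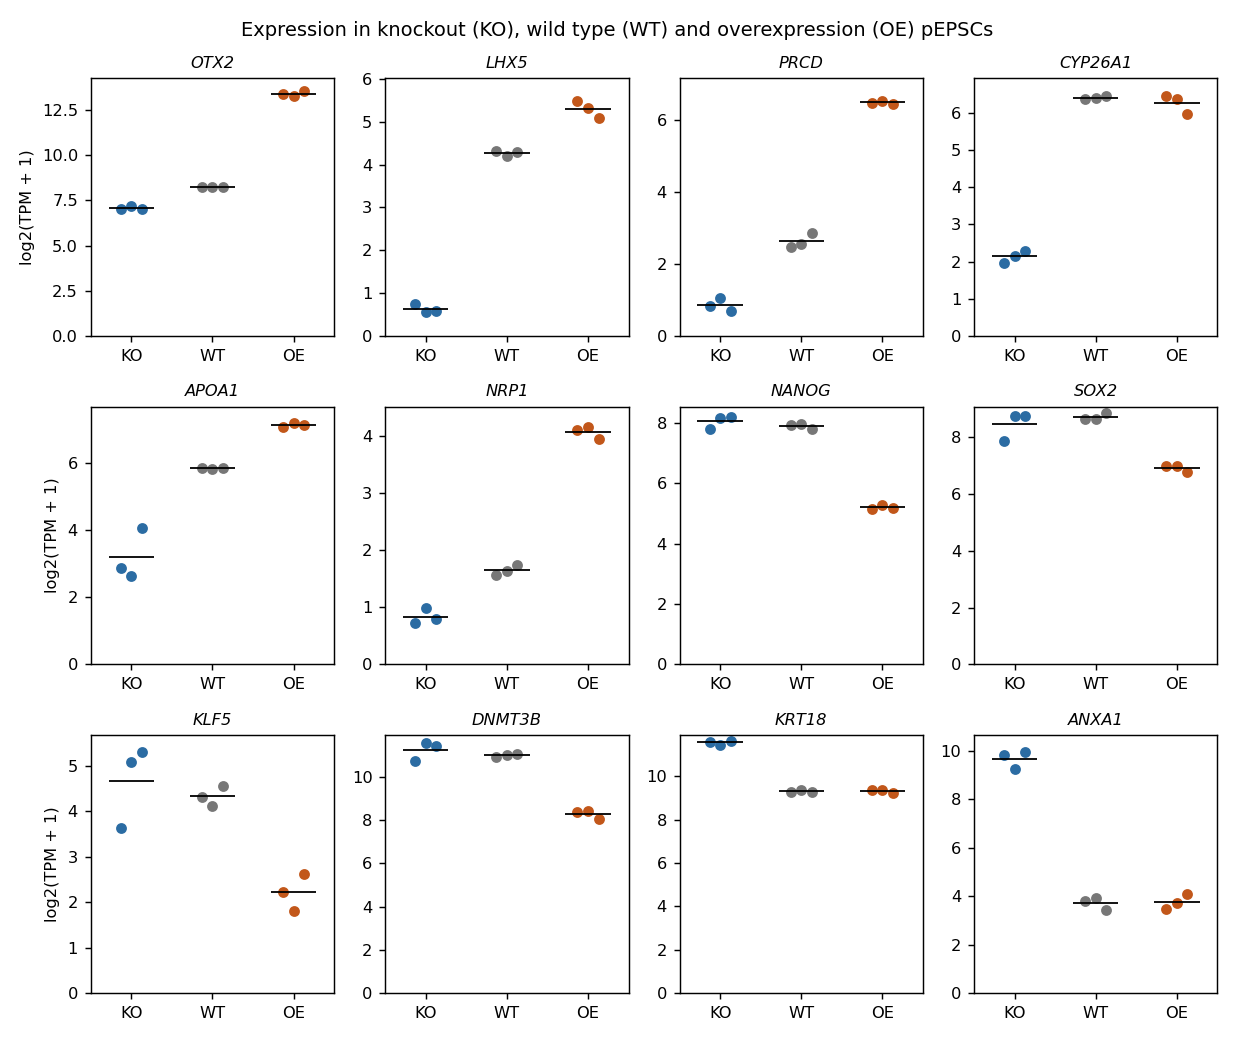
Points are the 3 libraries of each group (KO, knockout; WT, wild type; OE, overexpression), bars are group means, and the vertical axes show log2(TPM + 1) on their own scale for each of 12 genes. OTX2, LHX5 and PRCD rise across the groups, CYP26A1 is low in knockout alone, KRT18 and ANXA1 are high in knockout alone, and NANOG, SOX2, KLF5 and DNMT3B are low in overexpression alone.

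WT lay between the groups without overlap in a part of the genes. In 1028 (8.51%) the 3 WT libraries lay above all KO and below all OE libraries, and in 484 (4.00%) below all KO and above all OE libraries. WT lay above all libraries of both engineered groups for 2908 genes (24.1%) and below all of them for 1701 (14.1%), and the other 5964 (49.4%) had overlaps. Both distances are taken to the same WT libraries, so these counts are a description of the order. Without KO library 1 the falling genes numbered 783 and those with WT below both 2599. Leaving out a library can only raise such counts, since fewer libraries then have to stay apart. Among the 2087 genes higher in OE past 2-fold, OE was the group farther from WT in 1592 (76.3%), and among the 822 lower ones in 596 (72.5%).

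Genes named for WT above both engineered groups were picked by their distance from WT and not by the difference between OE and KO. That their OE to KO differences were smaller than those above follows from this choice. The amino acid transporter SLC38A2 was at 80.9, 80.1 and 90.97 TPM in KO, 260.4, 261 and 264 in WT and 48.8, 48.4 and 47.5 in OE (-0.79 (SE 0.0925, adjusted p = 0.000271)), and ABHD17B, a depalmitoylating enzyme, at 80.9, 68.4 and 77.5, 262, 260.2 and 273 and 43.1, 51.2 and 42.3 TPM (-0.72). PMAIP1, the pro-apoptotic protein NOXA, was at 17.6, 25.9 and 28.6, 79.3, 67.00 and 74.3 and 10.8, 15.1 and 13.5 TPM (-0.81). Each was lower in OE than in KO, and lower in both than in WT. SLC6A15, a neutral amino acid transporter, and ZDHHC21, a palmitoyltransferase, followed at -0.69 and -0.88.

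Genes with WT below both groups included several of neurons and secreted proteins. DRD2, the dopamine D2 receptor, was at 91.3, 83.00 and 61.6 TPM in KO, 10.98, 9.88 and 12.4 in WT and 47.4, 52.2 and 48.2 in OE, and was the 1 of the 8 named genes of this class that was lower in OE (-0.65 (SE 0.152, adjusted p = 0.00784)). IGFBP7, a secreted growth factor binding protein, was at 15.02, 17.8 and 18.98, 1.82, 3.11 and 3.05 and 114, 126 and 136 TPM (2.79), and PCP4, a calmodulin regulator of Purkinje cells, at 16.6, 14.2 and 13.7, 2.61, 3.63 and 2.697 and 94.1, 96.1 and 107 TPM (2.66). CRABP1, which binds retinoic acid in the cytoplasm, was at 47.1, 39.5 and 19.2, 3.27, 4.05 and 2.84 and 309, 296 and 303 TPM (3.16 (SE 0.293, adjusted p = 9.09e-05)). The matrix protein SMOC2 and the immediate early gene IER5 were also higher in OE than in KO, by 0.91 and 1.50.

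**Figure D4:**
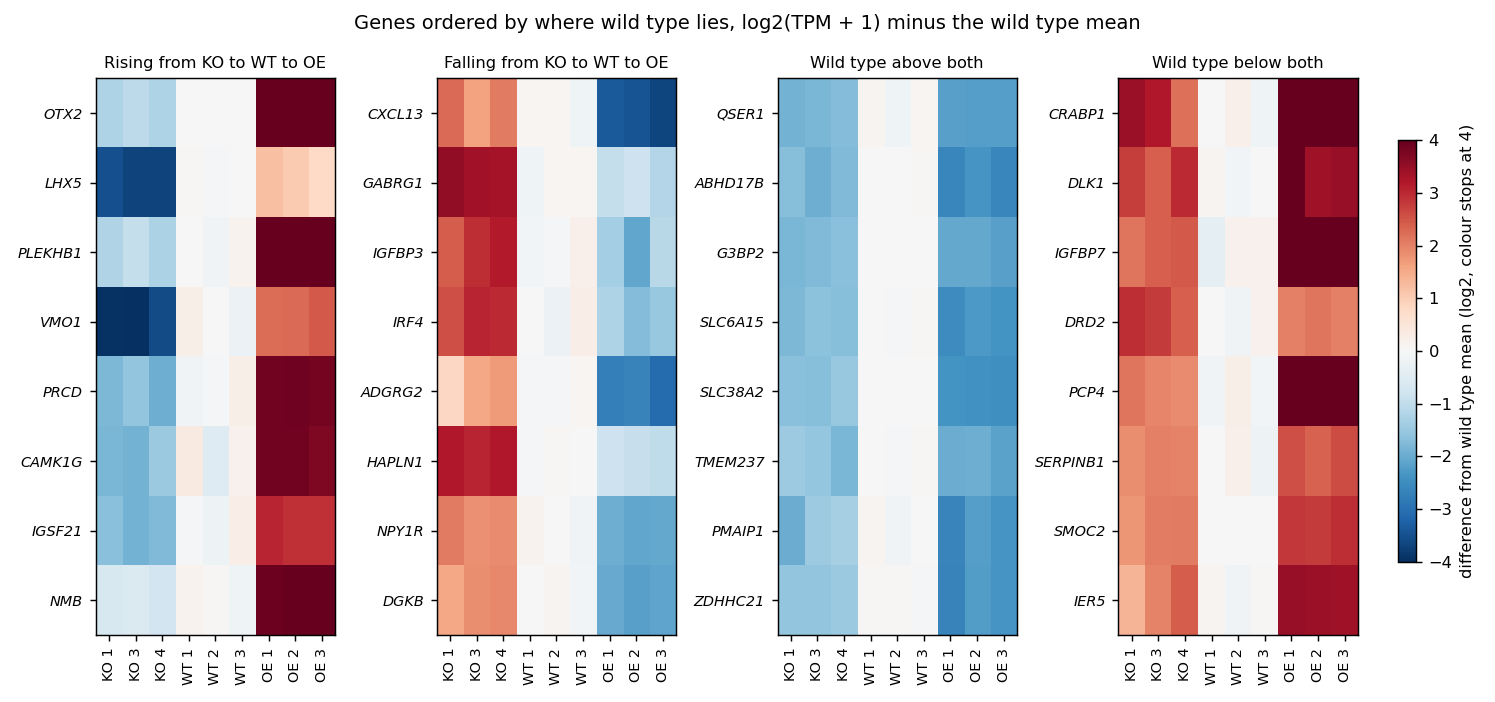
Rows are the 8 genes named for each position of wild type, columns are the 9 libraries, and colour is log2(TPM + 1) minus the wild-type mean, stopping at 4 in either direction. The rising and falling panels run through the wild-type columns from 1 colour to the other, while in the remaining panels both engineered groups lie on the same side of wild type.

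**Figure D5:**
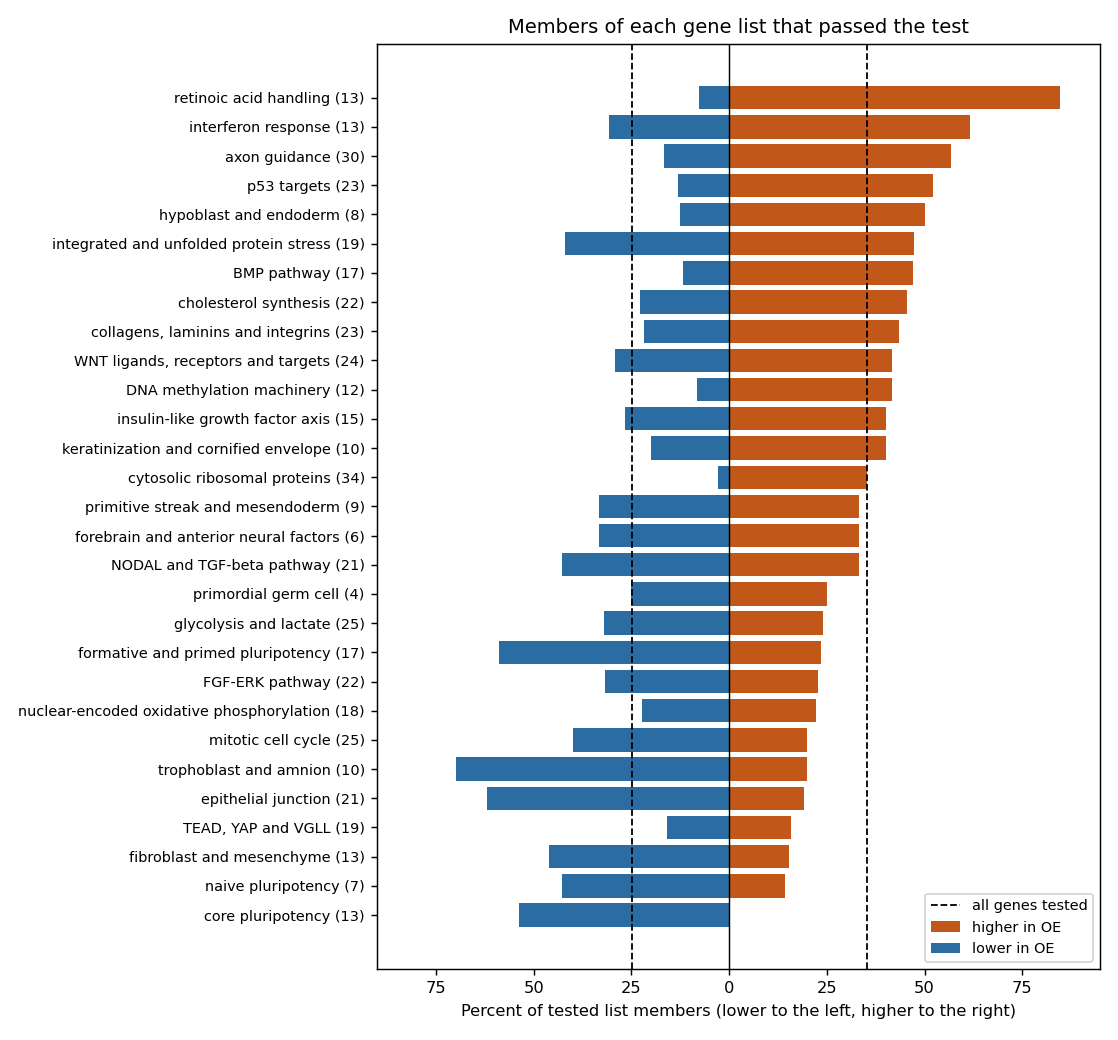
Bars show the percent of the tested members of each of 29 gene lists (number tested in brackets) that passed the test, higher in overexpression to the right and lower to the left. Dashed lines mark the percent among all genes tested, 35.3% higher and 24.8% lower, and retinoic acid handling reaches farthest to the right and trophoblast and amnion farthest to the left.

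Several core factors of pluripotency, NANOG and SOX2 among them, were lower in OE than in KO. For 13 tested genes of a list of 16 core factors, 0 were higher and 7 lower in OE, with a median log2 fold change of -0.57 against 0.12 over all genes. Over all genes tested 35.3% were higher and 24.8% lower, and the counts of this and the following lists are to be read beside those shares. NANOG, a homeobox factor of the inner cell mass, was at 221, 287 and 297 TPM in KO, 244, 247 and 222 in WT and 34.8, 37.9 and 35.3 in OE (-2.85 (SE 0.126, adjusted p = 3.89e-06)), and the symbol belongs to 2 annotated pig genes. SOX2, the partner of OCT4 in stem cells, was at 229, 427 and 427, 397, 390.0 and 456 and 126, 124 and 109 TPM (-1.53 (SE 0.235, adjusted p = 0.00105)). For both genes OE lay below every KO and WT library, while KO and WT overlapped. POU5F1, which encodes OCT4, fell less, from 2171, 2247 and 2189 TPM in KO through 1813, 1849 and 1861 in WT to 1594, 1558 and 1484 in OE (-0.51 (SE 0.0596, adjusted p = 0.00026)). UTF1, an undifferentiated cell factor, had another pattern, with KO at 102, 90.9 and 88.9 TPM, WT at 15.8, 12.9 and 20.1 and OE at 22.2, 24.5 and 17.9 (-2.08). TDGF1, the NODAL co-receptor, PRDM14, a repressor of primed and somatic genes, and ZFP42 were lower, at -1.72, -1.58 and -1.39.

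The LIN28 genes, whose proteins block let-7 maturation, rest on KO library 1. LIN28A was at 272, 1291 and 1220.2 TPM in KO, 1672, 1764 and 1818 in WT and 769, 785 and 676 in OE, a difference of -0.03 (SE 0.547, adjusted p = 0.972), and LIN28B at 9.77, 57.2 and 58.4, 76.5, 72.2 and 74.7 and 22.4, 21.4 and 20.9 TPM (-0.57 (SE 0.611, adjusted p = 0.451)). KO library 1 was far below the other 2 libraries of its group for both. Without it, LIN28A was -0.76 (adjusted p = 2.18e-06) and LIN28B -1.38 (adjusted p = 7.51e-08), and 11 of the 13 core factors were lower. The direction of LIN28A turned to higher under several other settings.

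Of 7 tested naive pluripotency genes (16 listed), 1 was higher and 3 lower, with a median of -0.51. KLF5, a Krüppel-like factor of naive cells, was at 11.4, 33.02 and 38.7 TPM in KO, 19.1, 16.4 and 22.5 in WT and 3.68, 2.51 and 5.19 in OE (-2.46 (SE 0.438, adjusted p = 0.00218)). KLF4, its relative, was at 4.68, 4.12 and 4.49, 5.68, 5.32 and 4.73 and 2.17, 1.91 and 2.15 TPM (-0.82). ESRRB, an orphan nuclear receptor, was the 1 higher gene, at 1.37, 1.07 and 2.36 TPM in KO and 5.77, 5.45 and 4.28 in OE (1.27), while WT overlapped OE at 5.497, 4.42 and 4.48. Without KO library 1 the counts were 2 higher and 5 lower, and without KO library 4 there were 2 higher.

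Formative and primed genes were also lower on balance, 10 of 17 tested members against 4 higher, with a median of -0.91. DNMT3B, the de novo DNA methyltransferase of the epiblast, was at 1699, 3020.4 and 2761 TPM in KO, 1915, 2098 and 2119 in WT and 334, 344 and 269 in OE (-2.94 (SE 0.215, adjusted p = 3.14e-05)). FGF2, a growth factor that sustains primed cells, was at 32.8, 24.7 and 29.3, 16.4, 14.95 and 15.97 and 4.53, 5.52 and 5.15 TPM (-2.30). ETV1, an ETS factor downstream of ERK, and the zinc finger factor ZIC5 were lower, at -2.23 and -1.66, with OE below all libraries of both other groups. POU3F1, a POU factor of the primed epiblast and early neural cells, went the other way, at 1.33, 2.08 and 1.24, 13.9, 14.9 and 15.99 and 17.2, 19.1 and 16.4 TPM (2.88 (SE 0.159, adjusted p = 9.87e-06)). Without OE library 1, 2 or 3 the higher members numbered 2.

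Regional neural factors split. Of 20 listed forebrain and anterior neural factors only 6 were tested, 2 higher and 2 lower (33.3% each, against 35.3% and 24.8% of all genes tested). The median of 0.19 turned below 0 without KO library 1 or any 1 OE library. FEZF1, a repressor of the forebrain, was listed at 0, 0.0643 and 0 TPM in KO, 2.97, 2.65 and 3.25 in WT and 13.4, 12.4 and 11.9 in OE (3.73), next to LHX5 above. HESX1, a homeobox repressor of the forebrain and pituitary, was at 49.8, 32.7 and 28.9 TPM in KO, 73.7, 78.04 and 70.4 in WT and 20.6, 19.6 and 19.4 in OE (-0.83 (SE 0.197, adjusted p = 0.00799)). LHX5 and FEZF1 were under 1 TPM in every KO library, so without any 1 OE library neither could pass the filter and the higher count was 0. The lower count was 1 without KO library 4 or OE library 1 or 2, and 2 without KO library 1, where the neural filament gene NES passed at -0.38 (adjusted p = 0.00447).

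Primitive streak and mesendoderm genes went both ways, 3 of 9 higher and 3 lower (33.3% each, against 35.3% and 24.8% of all genes tested, median -0.49). GSC, a homeobox factor of the organizer, was at 31.00, 34.5 and 33.9 TPM in KO, 28.2, 24.9 and 26.8 in WT and 74.5, 77.3 and 68.5 in OE (1.12 (SE 0.0999, adjusted p = 6.92e-05)). TBX6 and FGF8, of the presomitic mesoderm and the streak, were higher in OE by 1.13 and 1.26. WNT3, the ligand that starts the streak, was lower, at 12.3, 21.00 and 17.3 TPM in KO and 4.91, 4.47 and 3.77 in OE (-1.71), and so was the activin antagonist FST (-1.19). EOMES was at 6.17, 5.95 and 7.599 and 5.66, 6.17 and 5.36 TPM (-0.17, adjusted p = 0.32), with WT above both at 15.6, 15.4 and 16.8. The lower members numbered 5 without KO library 1.

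In hypoblast and endoderm, 4 of 8 were higher and 1 lower in overexpression, with a median log2 fold change of 0.66. The apolipoproteins carried the list: APOE was at 149, 161 and 145 TPM in KO, 736, 781 and 812 in WT and 2089, 2125 and 2009 in OE (3.77 (SE 0.072, adjusted p = 2.45e-07)), and APOA1 at 6.33, 5.15 and 15.8, 56.2, 54.8 and 56.8 and 133, 144 and 138 TPM (3.93). The forkhead factor FOXA3 was at 11.02, 13.5 and 11.9, 15.1, 14.7 and 15.6 and 48.1, 48.01 and 53.1 TPM (1.95). All 3 rose in the order KO, WT, OE. NR2F2, the nuclear receptor COUP-TFII, was lower at -2.81. FOXA2 was at 24.9, 29.5 and 43.3 and 27.4, 33.8 and 31.3 TPM (-0.04). The counts were 6 higher and 1 lower without KO library 1.

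Of 10 tested genes of trophoblast, amnion and simple epithelium 7 were lower and 2 higher, with a median of -1.19. KRT8, an intermediate filament of simple epithelia, was at 4233, 4786 and 5409.5 TPM in KO, 1347, 1409 and 1353 in WT and 1265, 1270.3 and 1223 in OE (-1.93 (SE 0.0927, adjusted p = 5.48e-06)), and its partner KRT18 at 3134, 2843 and 3206, 627, 661 and 613 and 659, 668 and 607 TPM (-2.25 (SE 0.075, adjusted p = 1.45e-06)). TFAP2C, an AP-2 factor of trophoblast and germ cells, was at 54.1, 63.9 and 61.6, 20.5, 18.5 and 20.5 and 17.7, 21.3 and 17.4 TPM (-1.62), and TFAP2A was lower, at -1.44. KO lay above both other groups for these genes, and WT and OE overlapped except for KRT8. GABRP, a GABA receptor subunit of amnion, was higher in OE at 34.5, 38.98 and 29.3 TPM against 2.08, 1.87 and 3.603 in KO (3.35), with WT at 48.6, 46.5 and 44.9. The higher count was 1 without KO library 1 or 3 or any 1 OE library.

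Of 10 tested genes of keratinization 4 were higher and 2 lower (40% and 20%, against 35.3% and 24.8% of all genes tested). The median of -0.09 turned above 0 without KO library 4. PADI2, which converts arginine to citrulline, was at 10.6, 16.7 and 19.1 TPM in KO, 13.3, 13.8 and 14.7 in WT and 206, 208 and 217 in OE (3.72 (SE 0.195, adjusted p = 8.3e-06)). GRHL1, a grainyhead factor of epidermis, was at 4.79, 9.61 and 8.16, 8.25, 10.4 and 10.4 and 55.4, 56.7 and 54.8 TPM (2.78), and the desmosome protein DSP at 48.5, 108 and 116, 307, 284 and 331 and 349, 381 and 329 TPM (2.04). With TGM1 these were the 4 higher genes. ANXA1 and S100A10, an annexin partner (-0.61), were the lower ones. There were 6 lower without KO library 1.

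Epithelial junction genes were lower in 13 of 21 tested members and higher in 4, with a median of -0.68. CDH1, the adherens junction E-cadherin, differed by -1.32. CLDN6, a tight junction claudin of stem cells, was at 779, 794 and 799 TPM in KO, 408, 367 and 443 in WT and 348, 352 and 328 in OE (-1.20 (SE 0.0662, adjusted p = 9.57e-06)), and EPCAM, an epithelial adhesion molecule, at 461, 345 and 366, 354, 336 and 341 and 179, 172 and 177 TPM (-1.13). CLDN7 and CLDN3 were lower, at -0.90 and -0.66, and PKP2 of desmosomes at -1.54. OE lay below every KO library for each of these. Without OE library 2 the higher members numbered 2.

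In fibroblast and mesenchyme, 6 of 13 tested genes were lower and 2 higher, with a median of -0.45. TWIST2, a bHLH factor of mesenchyme, was at 17.5, 17.8 and 25.7 TPM in KO, 2.899, 4.38 and 3.92 in WT and 5.76, 6.61 and 10.3 in OE (-1.33 (SE 0.233, adjusted p = 0.00196)). TAGLN, an actin-binding protein of smooth muscle, was at 191, 152 and 216, 66.7, 79.5 and 70.8 and 95.7, 100.4 and 90.2 TPM (-0.94), and vimentin, VIM, at 193, 163 and 162, 102, 108 and 107 and 124, 131 and 129.9 TPM (-0.42). WT was the lowest group for all 3. The collagen COL5A1 (1.44) and the surface protein THY1 (0.62) were higher in OE. The lower genes numbered 9 without KO library 1 and 3 without KO library 4 or OE library 1.

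Of 4 tested primordial germ cell genes 1 was higher and 1 lower (25% each, against 35.3% and 24.8% of all genes tested, median -0.25). TDRD7, a tudor protein of germ granules, was at 7.52, 9.596 and 9.76 TPM in KO, 4.64, 4.76 and 4.895 in WT and 34.6, 38.2 and 40.4 in OE (1.96 (SE 0.137, adjusted p = 2.37e-05)), and DND1, an RNA-binding protein of germ cells, at 54.8, 116 and 114, 35.8, 35.3 and 33.95 and 24.98, 28.5 and 20.9 TPM (-1.83 (SE 0.289, adjusted p = 0.00121)). A second gene, the stem cell factor receptor KIT, was lower without KO library 1, at -0.93 (adjusted p = 4.66e-06).

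Retinoic acid is made from vitamin A, carried by cellular binding proteins, cleared by CYP26 enzymes and read by RAR and RXR receptors. Genes of its handling were the list with the largest share higher in OE: 11 of 13 tested members of 24 listed, 1 lower, and a median of 1.69, which ranged from 1.56 to 1.77 over the settings tried. CYP26A1, the clearing enzyme, was at 2.92, 3.43 and 3.91 TPM in KO, 81.4, 83.1 and 86.4 in WT and 85.8, 81.9 and 61.9 in OE (4.12 (SE 0.163, adjusted p = 2.67e-06)). WT overlapped OE, so the difference lay on the KO side. DHRS11, a short-chain dehydrogenase, was at 23.6, 27.2 and 24.98, 12.9, 13.3 and 11.97 and 663, 660.2 and 668 TPM (4.66 (SE 0.083, adjusted p = 1.92e-07)), with both KO and WT low. DHRS3, which returns retinaldehyde to retinol, was at 20.5, 21.2 and 19.8, 5.72, 5.58 and 5.795 and 65.5, 66.1 and 62.4 TPM (1.61), and RDH10, which makes retinaldehyde, at 4.73, 4.41 and 5.56, 3.32, 2.69 and 2.59 and 24.2, 25.6 and 26.8 TPM (2.17).

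Of the carriers and receptors, CRABP2, which brings retinoic acid to the nucleus, was at 379, 391 and 335 TPM in KO, 457, 402 and 437 in WT and 1214, 1156 and 1195 in OE (1.69 (SE 0.0794, adjusted p = 4.6e-06)). The receptor RXRG was at 4.200, 2.91 and 3.06, 0.964, 1.45 and 0.857 and 28.5, 30.4 and 26.8 TPM (2.76), and RXRA and RXRB were higher by 1.99 and 1.52. OE lay above all KO and WT libraries for CRABP2 and RXRG. RBP4, the retinol carrier of plasma, was the 1 lower member (-0.94). The receptor RARA differed by -0.29 with overlap, and without KO library 1, or under median-ratio scaling or quantile normalization, it passed as a second lower gene (-0.46, -0.41 and -0.58). RARB, a classical target of retinoic acid, was listed in the knockout table alone, at 13.3, 12.02 and 12.1 TPM in KO and 0.772, 1.13 and 0.791 in WT as deposited.

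WNT proteins act through Frizzled receptors and LRP co-receptors on beta-catenin and TCF factors. Of 24 tested genes 10 were higher and 7 lower (41.7% and 29.2%, against 35.3% and 24.8% of all genes tested). The median of 0.08 was below 0 under median-ratio scaling, quantile normalization and without KO library 1. SFRP1, a secreted antagonist, was at 40.7, 49.8 and 52.04 TPM in KO, 131, 130.1 and 133 in WT and 170.4, 174 and 168 in OE (1.83 (SE 0.11, adjusted p = 1.29e-05)). The co-receptor LRP5 was at 7.68, 13.01 and 12.7, 15.8, 12.3 and 15.1 and 44.3, 50.4 and 40.9 TPM (1.96), and the target and effector TCF7 at 5.82, 5.805 and 5.11, 10.2, 8.18 and 12.4 and 13.01, 13.9 and 13.4 TPM (1.14). The feedback inhibitors NKD2 and AXIN2 were higher by 1.45 and 1.20. The receptor FZD10 was lower, at 11.3, 13.6 and 15.4 TPM in KO and 3.34, 3.01 and 3.89 in OE (-1.70), and FZD8 differed by -0.75. There were 11 lower without KO library 1 and 6 higher under quantile normalization.

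NODAL signals through activin receptors and the TDGF1 co-receptor to SMAD2 and FOXH1. Of 21 tested genes 9 were lower and 7 higher (42.9% and 33.3%, against 24.8% and 35.3% of all genes tested, median -0.32). The ligand GDF3 was at 14.8, 11.2 and 8.11 TPM in KO, 4.100, 4.82 and 4.21 in WT and 0.325, 0.232 and 0.126 in OE (-3.30 (SE 0.21, adjusted p = 1.73e-05)), so it passed the filter through KO alone. NODAL was at 51.1, 56.4 and 47.3, 29.5, 26.7 and 26.8 and 23.3, 21.3 and 18.9 TPM (-1.25 (SE 0.123, adjusted p = 0.000115)), and FOXH1 at 97.9, 117 and 116, 49.9, 44.6 and 43.1 and 28.5, 33.4 and 26.8 TPM (-1.86). All 3 fell from KO to WT to OE. The SMAD co-repressor SKIL was lower, at -1.38, while the target LEFTY2 (0.87) was higher.

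BMP signals through SMAD1 and SMAD5 to the ID genes. Of 17 tested genes 8 were higher and 2 lower (47.1% and 11.8%, against 35.3% and 24.8% of all genes tested, median 0.29). BMP4 was at 3.49, 2.904 and 2.52 TPM in KO, 2.53, 2.04 and 2.06 in WT and 7.89, 10.54 and 7.85 in OE (1.29 (SE 0.163, adjusted p = 0.000379)). SMAD5 was higher in OE than in KO by 0.73, but OE at 19.0, 21.1 and 19.96 TPM lay below WT at 27.3, 25.4 and 22.9. The ID genes, inhibitors of bHLH factors, split: ID1 was at 209, 346 and 314, 162, 163 and 164 and 41.6, 33.9 and 33.7 TPM (-2.93 (SE 0.193, adjusted p = 1.98e-05)), ID3 at 43.98, 32.4 and 63.5, 108, 104 and 118 and 119, 122 and 116 TPM (1.39) and ID2 at 6.85, 6.67 and 11.14, 3.56, 2.66 and 4.08 and 16.8, 16.96 and 26.7 TPM (1.20). MSX2, a BMP target, was higher by 0.95. The lower members numbered 5 without KO library 1 and 1 without KO library 3 or 4 or OE library 2 or 3.

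FGF ligands act through receptor tyrosine kinases on ERK, which induces ETS factors and the feedback inhibitors SPRY and DUSP. Of 22 tested genes 7 were lower and 5 higher (31.8% and 22.7%, against 24.8% and 35.3% of all genes tested). The median of -0.19 rose above 0 without KO library 4. EGR1, an immediate early gene of ERK, was at 8.51, 22.8 and 19.9 TPM in KO, 29.3, 22.8 and 39.2 in WT and 202, 197 and 243 in OE (3.67 (SE 0.324, adjusted p = 7.17e-05)). MYC, a growth-promoting factor, was at 99.8, 103 and 100.5, 88.6, 74.1 and 94.3 and 32.1, 27.8 and 28.2 TPM (-1.75), and the ligand FGF19 at 23.3, 30.8 and 28.7, 13.4, 10.7 and 9.38 and 3.91, 5.28 and 2.44 TPM (-2.58). OE was thus the highest group for EGR1 and the lowest for the other 2. The receptor FGFR4 was lower, at -1.40, and the inhibitors SPRY4, SPRY2 and SPRED1 at -1.85, -0.87 and -0.80. FGF13, an intracellular FGF homologue, was higher by 2.05. Without KO library 1 there were 11 lower.

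In the insulin-like growth factor axis, 6 of 15 tested genes were higher and 4 lower (40% and 26.7%, against 35.3% and 24.8% of all genes tested). The median of 0.37 fell below 0 under quantile normalization. IGF1R, the receptor, was at 5.91, 10.1 and 14.1 TPM in KO, 24.2, 24.5 and 30.7 in WT and 43.6, 40.7 and 36.8 in OE (1.98 (SE 0.267, adjusted p = 0.000552)). IGFBP2, a binding protein, was at 248, 263 and 287, 308, 307 and 306 and 623, 665 and 595 TPM (1.24), and the adaptor GRB10 differed by 1.07. These 3 rose from KO to WT to OE. The substrate IRS4 was highest in WT, at 51.3, 51.4 and 58.8 TPM, with 1.63, 3.104 and 3.299 in KO and 22.2, 20.6 and 18.1 in OE (2.56). IGFBP4 was lower, at -1.89. The lower members numbered 7 without KO library 1 and 2 without OE library 1 or 2.

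Axon guidance genes were higher in 17 of 30 tested members and lower in 5, with a median of 0.66. NRP1, a receptor of semaphorins and VEGF, was at 0.655, 0.986 and 0.726 TPM in KO, 1.96, 2.11 and 2.35 in WT and 16.3, 16.7 and 14.4 in OE (3.23 (SE 0.134, adjusted p = 2.92e-06)). The ephrin receptor EPHB2 was at 2.48, 4.95 and 4.05, 17.9, 15.9 and 18.6 and 45.2, 44.1 and 41.7 TPM (3.24), and the ephrin EFNB3 at 24.4, 31.3 and 28.5, 28.2, 29.5 and 33.7 and 202, 206 and 196 TPM (2.80 (SE 0.109, adjusted p = 2.31e-06)). NRP1 and EPHB2 rose from KO to WT to OE. EFNA1 and EFNB1 were higher by 2.07 and 2.08. The Slit receptor ROBO2 was lower, at 10.2, 16.8 and 13.7, 3.13, 3.49 and 3.64 and 1.21, 0.821 and 0.714 TPM (-2.91), and its relative ROBO1 was higher by 1.39. NRP1 was under 1 TPM in all KO libraries. The higher members numbered 11 without OE library 2, and the lower ones 9 without KO library 1 and 2 or 3 without any other 1 library.

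Among collagens, laminins and integrins 10 of 23 were higher and 5 lower (43.5% and 21.7%, against 35.3% and 24.8% of all genes tested). The median of 0.19 was -0.01 without KO library 1. The basement membrane collagens COL4A5, COL4A6 and COL4A2 were higher by 1.71, 1.78 and 1.08, and the integrins ITGB5 and ITGA3 by 1.81 and 1.86. ITGB5 was at 34.5, 46.5 and 47.7 TPM in KO, 44.3, 45.7 and 48.3 in WT and 153, 150.5 and 149 in OE. COL6A2, a collagen of the microfibrils, was lower, at 233, 261 and 227, 60.1, 55.2 and 69.7 and 44.7, 50.3 and 43.5 TPM (-2.36 (SE 0.0982, adjusted p = 2.98e-06)). The lower members numbered 10 without KO library 1 and 3 without OE library 1.

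TEAD factors drive growth genes with YAP1, which Hippo kinases restrain. Of 19 tested genes 3 were higher and 3 lower (15.8% each, against 35.3% and 24.8% of all genes tested). The median of -0.11 turned above 0 without KO library 4. YAP1 was at 69.4, 81.02 and 75.2 TPM in KO, 75.2, 71.03 and 72.96 in WT and 30.3, 33.9 and 29.5 in OE (-1.24 (SE 0.107, adjusted p = 6.19e-05)), and its target CTGF at 26.7, 51.98 and 50.6, 38.97, 31.3 and 39.4 and 14.3, 14.3 and 14.7 TPM (-1.45). OE lay below both other groups for each. Without KO library 1 the counts were 5 higher and 9 lower, and without OE library 2 or 3 there was 1 higher. VGLL1, a TEAD cofactor, was listed in the knockout table alone, at 35.1, 29.9 and 53.1 TPM in KO and 0.499, 0.417 and 0.3599 in WT as deposited.

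Among DNA methylation genes beyond DNMT3B, 5 of 12 tested were higher and 1 lower (41.7% and 8.33%, against 35.3% and 24.8% of all genes). The median was 0.45. The dioxygenases that oxidise 5-methylcytosine were unequal: TET3 was at 1.95, 4.04 and 4.59 TPM in KO, 13.2, 10.1 and 15.99 in WT and 31.3, 32.3 and 27.2 in OE (2.84 (SE 0.242, adjusted p = 6.21e-05)), TET2 was higher by 1.23, and TET1 differed by -0.17 with overlap (-0.85 without KO library 1, adjusted p = 3.85e-05). MBD4, a glycosylase that binds methylated DNA, was higher by 0.86. Lower members numbered 5 without KO library 1 and 0 without KO library 3 or 4 or OE library 1 or 3.

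Targets of p53 were higher in 12 of 23 tested genes and lower in 3 (median 0.37). GDF15, a stress cytokine, was at 4.23, 3.49 and 3.84 TPM in KO, 1.14, 1.36 and 1.59 in WT and 54.8, 49.7 and 45.3 in OE (3.39 (SE 0.127, adjusted p = 1.96e-06)). TP53INP1, a p53-induced nuclear protein, was at 11.3, 16.7 and 20.4, 22.3, 22.7 and 23.6 and 79.1, 85.1 and 84.6 TPM (2.33), and GADD45A, a growth arrest gene, at 7.75, 9.902 and 14.1, 5.85, 4.75 and 6.14 and 29.8, 35.4 and 35.1 TPM (1.60). OE lay above all other libraries for these 3. MDM2, the ligase that degrades p53 and is itself its target, was lower, at 40.3, 41.9 and 47.8, 35.5, 32.8 and 35.6 and 10.6, 12.2 and 12.4 TPM (-1.80 (SE 0.123, adjusted p = 2.19e-05)).

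Of genes of the integrated and unfolded protein stress responses, 9 of 19 were higher and 8 lower. These are 47.4% and 42.1%, against 35.3% and 24.8% of all genes tested. The median of 0.10 was below 0 under median-ratio scaling, quantile normalization and without KO library 1. PSAT1, of serine synthesis, was at 11.7, 16.7 and 15.2 TPM in KO, 45.8, 43.3 and 41.7 in WT and 107, 114 and 109 in OE (2.85 (SE 0.139, adjusted p = 5.6e-06)), and CHAC1, PPP1R15A and DDIT3, targets of ATF4, were higher by 1.92, 1.89 and 1.39. The chaperones of the endoplasmic reticulum HSPA5 and DNAJB9 were lower, at -0.64 and -0.83, and XBP1, a factor of the unfolded protein response, was lower at -0.65. SLC3A2, an amino acid transporter subunit and another target of ATF4, was also lower, at -0.56.

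Mitotic cell cycle genes were lower in 10 of 25 and higher in 5 (40% and 20%, against 24.8% and 35.3% of all genes tested). The median of -0.06 turned above 0 with TPM as deposited and without KO library 3. CDK1, the mitotic kinase, was at 193, 169 and 156 TPM in KO, 211, 210.2 and 213 in WT and 73.9, 79.4 and 72.1 in OE (-1.19 (SE 0.103, adjusted p = 6.21e-05)), and its cyclin CCNB1 at 439, 325 and 335, 405, 404 and 393 and 143, 150.4 and 145 TPM (-1.31). PCNA, the replication clamp, was lower, at -1.11. The kinesin KIF20A and the proliferation marker MKI67 were higher by 1.20 and 1.30.

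In glycolysis 8 of 25 genes were lower and 6 higher (32% and 24%, against 24.8% and 35.3% of all genes tested, median -0.10). The glucose transporter SLC2A1 was at 185, 197 and 193 TPM in KO, 119, 109 and 119 in WT and 72.8, 79.9 and 70.9 in OE (-1.35 (SE 0.0842, adjusted p = 1.48e-05)), and PDK1, which restrains pyruvate oxidation, at 31.8, 36.5 and 33.5, 86.6, 84.1 and 88.7 and 15.9, 18.1 and 16.7 TPM (-0.96). The isozyme ALDOC was higher by 1.09. The lower genes numbered 12 without KO library 1 and 5 without OE library 1 or 3. In nuclear-encoded oxidative phosphorylation 4 of 18 were higher and 4 lower (22.2% each, against 35.3% and 24.8% of all genes tested). The median of 0.09 fell below 0 under median-ratio scaling. NDUFB9 and NDUFA1, of complex I, were higher by 1.12 and 0.89, and NDUFS1 and NDUFS3 of the same complex were lower, at -0.62 and -0.54. With KO library 1, the one of larger mitochondrial share, left out, 8 were higher.

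Cytosolic ribosomal proteins had a median near that of all genes: 12 of 34 were higher and 1 lower (median 0.10). The higher share was 35.3%, as over all genes tested, and the lower share 2.94% against 24.8%. There were 24 higher without KO library 1 and 3 higher under median-ratio scaling, where the median was -0.03. RPL18, of the large subunit, was at 1986, 1897 and 1915 TPM in KO, 1668, 1721 and 1646 in WT and 3566, 3351 and 3589.8 in OE (0.86 (SE 0.0593, adjusted p = 2.3e-05)). Ribosomal protein genes have many near-identical pseudogenes, so their levels are uncertain. In cholesterol synthesis 10 of 22 were higher and 5 lower (45.45% and 22.73%, against 35.3% and 24.8% of all genes tested, median 0.32). The list summed to 3132 to 3316 TPM in KO, 5660 to 5799 in WT and 3804 to 4021 in OE. WT lay above both engineered groups in 11 of the 22, against 24.1% of all genes tested. TM7SF2, a sterol reductase, and MVK, mevalonate kinase, were higher by 2.08 and 1.26, and STARD4, a sterol carrier, was at 6.63, 7.09 and 8.27 TPM in KO, 36.3, 33.8 and 33.4 in WT and 27.2, 34.97 and 31.9 in OE (1.96). HSD17B7 and SC5D, later enzymes, were lower, at -1.42 and -1.14. Without OE library 1 there were 6 higher.

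Interferon response genes were higher in 8 of 13 and lower in 4 (median 0.78). STAT2, the signal transducer of type I interferon, was at 9.05, 11.8 and 13.9 TPM in KO, 10.6, 9.88 and 9.38 in WT and 176, 173 and 174 in OE (3.82 (SE 0.149, adjusted p = 2.67e-06)), so KO and WT overlapped and OE lay far above. MX1, an antiviral GTPase, was at 51.5, 60.5 and 55.9, 53.3, 54.03 and 51.1 and 159, 153 and 166 TPM (1.50), and IRF9, the partner of STAT2, differed by 1.10. BST2, the antiviral tetherin, was lower, at 16.3, 19.1 and 19.5, 2.67, 2.35 and 3.17 and 3.73, 2.900 and 1.56 TPM (-2.41 (SE 0.228, adjusted p = 9.85e-05)).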

How the data were processed

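Bulk RNA of pEPSCs was measured by RNA-seq, and 2 of the 4 expression tables of the series were used. The authors deposited TPM for 6 libraries a table, and no gene listed has a mean under 1 TPM over the 6 libraries, as checked on the values. For each gene the authors deposited a log2 value of change from wild type and its adjusted p-value. Per the submitters' processing notes, the tools include STAR 2.7.3 and featureCounts 2.0.0 as well as DESeq2, StringTie 2.1.4 and Trim Galore 0.6.6, with no role or order stated, and the build is Sscrofa11.1. Read depth is unknown for TPM, so no counting interval was computed.

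Mitochondrial features (35 in both tables) were removed and each library was rescaled over the nuclear genes of its own table. With R 4.3.3 and statmod 1.5.0, limma 3.58.1 with a trended and robust variance prior was fitted to log2(TPM + 1) of 6 libraries, OE minus KO, with no covariate, and was tested on simulated data. Values under other settings were no filter, a pseudocount of 0.1, TPM as deposited, 3 other scalings, a fit of 9 libraries, the library number as a block and each library left out. Plots used matplotlib 3.10.9, and tables used pandas 2.3.3 and numpy 2.4.6 under Python 3.11.15. Gene positions are from RefSeq, in which 12122 of 12144 shared symbols matched.

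Genes were named by a rule: OTX2, 26 regulators, the 12 highest and 12 lowest differences among genes that passed without overlap and reached 5 TPM in the higher group, 8 genes for each position of wild type, and up to 6 members of each of 29 lists with the smallest adjusted p. A few other list members were named after their values were seen. The comparison, the genes and the lists were chosen with earlier results of these data known. Of the tested genes, 633 carry provisional LOC names and are counted but not named, and a few genes that the rule names are not reported here.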

Additional observations from a re-analysis of the deposited data

How the results depend on the processing

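With 1 library left out at a time 5806 to 8942 genes passed, the lowest without OE library 1 and the highest without KO library 1, against 7252 as reported. With the 2-fold threshold 2909 passed, and 1293 were lower past 2-fold under quantile normalization against 822. Leaving out 1 library at a time gave 3408 to 4799 higher genes and 2351 to 4143 lower ones, and 1810 to 2256 higher and 803 to 873 lower past 2-fold. Over the same left-out libraries, WT included, WT lay in rising order in 1047 to 1226 genes, in falling order in 508 to 783, above both groups in 2948 to 3317 and below both in 1732 to 2599. Leaving out a library can only raise these counts of WT position, since fewer libraries then have to stay apart. Their rise is therefore no check of the counts. The highest falling count and the highest counts with WT outside both groups came without KO library 1, and the cause was not tested. Leaving out an OE library removes genes that are under 1 TPM in KO from the test. Library numbers 1 and 3 are the only ones that KO and OE share, and same-numbered libraries did not deviate together (correlations of -0.02 and -0.24), so they do not pair the samples. A fit with the number as a replicate block gave 5234 genes, 3358 higher and 1876 lower, and the photoreceptor gene GNB1 lost its call with it (0.19, adjusted p = 0.461). Among single genes named by the rule, 12 of 2946 values under other settings changed sign, in 3 genes that had not passed. LIN28A was at 0.056 with TPM as deposited and 0.056 under quantile normalization, at 0.28 with the block, and from -0.76 to 0.36 when 1 library was left out. NES ranged from -0.38 to 0.059 over libraries left out. TDRD12 was at -0.10 under median-ratio scaling and -0.30 under quantile normalization, and ranged from -0.25 to 0.22 over libraries left out. A sign check against the authors' deposited table, added after the data were seen, took the difference of the authors' fold changes for OE and for KO against WT, and it had the same direction as here in 2890 of the 2909 genes past 2-fold. Depth limits what can be said of genes at a few TPM, since the number of reads behind them is unknown.

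Of 812 counts of list members under other settings, 109 moved by over 1.5 times, and the reported counts are given first here. With TPM as deposited the higher members went from 4 to 2 in formative and primed pluripotency and from 2 to 1 in trophoblast and amnion. The lower members went from 7 to 4 in WNT genes, from 2 to 1 in BMP pathway, from 4 to 2 in insulin-like growth factor axis, from 5 to 3 in axon guidance, from 5 to 3 in collagens and integrins and from 1 to 0 in DNA methylation machinery. Under median-ratio scaling the higher members went from 1 to 2 in naive pluripotency, from 2 to 1 in trophoblast and amnion, from 3 to 1 in TEAD and YAP genes and from 12 to 3 in cytosolic ribosomal proteins. The lower members went from 3 to 5 in naive pluripotency, from 1 to 2 in retinoic acid handling and from 5 to 8 in collagens and integrins. Under quantile normalization the higher members went from 1 to 2 in naive pluripotency, from 2 to 1 in trophoblast and amnion, from 10 to 6 in WNT genes and from 4 to 8 in nuclear-encoded oxidative phosphorylation. The lower members went from 3 to 5 in naive pluripotency, from 3 to 6 in primitive streak and mesendoderm, from 2 to 4 in keratinization and cornified envelope, from 1 to 2 in primordial germ cell, from 1 to 2 in retinoic acid handling, from 2 to 6 in BMP pathway, from 5 to 9 in axon guidance, from 3 to 6 in TEAD and YAP genes and from 1 to 2 in DNA methylation machinery. With 9 libraries in the fit the higher members went from 1 to 2 in naive pluripotency and from 3 to 5 in TEAD and YAP genes. The lower members went from 1 to 2 in cytosolic ribosomal proteins. With the replicate block the higher members went from 1 to 2 in naive pluripotency, from 2 to 1 in fibroblast and mesenchyme, from 3 to 1 in TEAD and YAP genes, from 5 to 3 in mitotic cell cycle and from 12 to 4 in cytosolic ribosomal proteins. The lower members went from 7 to 3 in WNT genes, from 2 to 1 in BMP pathway, from 4 to 2 in insulin-like growth factor axis, from 5 to 3 in axon guidance, from 5 to 2 in collagens and integrins, from 1 to 0 in DNA methylation machinery, from 3 to 1 in p53 targets, from 8 to 3 in integrated and unfolded protein stress, from 8 to 5 in glycolysis and lactate and from 1 to 0 in cytosolic ribosomal proteins. With 1 library left out at a time, higher members ranged from 1 to 2 in naive pluripotency, 2 to 4 in formative and primed pluripotency, 0 to 3 in forebrain and anterior neural factors, 1 to 2 in trophoblast and amnion and 2 to 4 in epithelial junction. The other ranges of higher members were 11 to 17 in axon guidance, 1 to 5 in TEAD and YAP genes, 3 to 8 in nuclear-encoded oxidative phosphorylation, 9 to 24 in cytosolic ribosomal proteins and 6 to 11 in cholesterol synthesis. With 1 library left out at a time, lower members ranged from 7 to 11 in core pluripotency, 2 to 5 in naive pluripotency, 1 to 2 in forebrain and anterior neural factors, 2 to 5 in primitive streak and mesendoderm, 2 to 6 in keratinization and cornified envelope, 3 to 9 in fibroblast and mesenchyme, 1 to 2 in primordial germ cell, 1 to 2 in retinoic acid handling and 5 to 11 in WNT genes. The other ranges of lower members were 1 to 5 in BMP pathway, 7 to 11 in FGF-ERK pathway, 2 to 7 in insulin-like growth factor axis, 2 to 9 in axon guidance, 2 to 9 in TEAD and YAP genes, 3 to 10 in collagens and integrins, 0 to 5 in DNA methylation machinery, 5 to 12 in glycolysis and lactate and 0 to 2 in cytosolic ribosomal proteins.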

Other observations

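Genes listed in 1 table only could not be compared between OE and KO, since a gene enters a table by its mean over that table's own libraries. Of these genes, 1149 were listed in the overexpression table alone and 155 in the knockout table alone, and the genes named here were chosen after their values were seen. The listing nearly fixes their direction: a mean above that of WT was found in 963 of 988 genes with a symbol in the overexpression table alone and in 120 of 132 in the knockout table alone. Levels are TPM as deposited, and each is set against the WT libraries of the same table.

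Endoderm and mesoderm factors were among those of the overexpression table. HNF4A, a nuclear receptor of liver and gut, was at 0.108, 0.210 and 0.117 TPM in WT and 13.96, 13.90 and 12.3 in OE, and GATA4 at 0.0480, 0.0259 and 0.0254 and 8.81, 8.999 and 9.48 TPM. T, the brachyury factor of the primitive streak, was at 0, 0.0529 and 0 and 20.1, 21.7 and 20.8 TPM. The eye field factors RAX and SIX3 were at 10.998, 10.1 and 8.73 and 9.14, 7.12 and 7.53 TPM in OE, against 0.752, 0.436 and 0.574 and 0.731, 0.425 and 0.513 in WT. PADI3, an arginine deiminase of hair follicle and epidermis, was at 0.638, 0.602 and 0.425 TPM in WT and 132, 126 and 112 in OE, and was the highest of the named genes listed there alone.

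In the knockout table, CDX1, a caudal-type homeobox factor of posterior tissue, was at 1.03, 0.170 and 1.55 TPM in WT and 22.9, 30.5 and 19.4 in KO, and GBX2, a homeobox factor of the hindbrain border that opposes OTX2, at 0.133, 0.192 and 0.228 and 10.1, 10.2 and 12.4 TPM. The eye field factor SIX6 was at 0.0736, 0 and 0 TPM in WT and 2.36, 2.44 and 4.52 in KO. GATA6, an endoderm factor, was at 0.0353, 0.0310 and 0.0678 TPM in WT and 1.33, 2.09 and 3.14 in KO. Factors of the eye field and of endoderm were thus found among the genes of either table alone. NEFM, a neurofilament subunit, was at 1.13, 0.930 and 1.15 and 29.4, 40.9 and 56.4 TPM. ZAR1, a factor of the oocyte, was at 0.974, 1.02 and 1.60 and 16.1, 14.8 and 16.9 TPM, and DPPA3, a maternal factor of naive and germ cells, at 0.455, 0.631 and 0.100 and 6.02, 4.44 and 4.50 TPM.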
